A study of Mus musculus with 4 samples.

Results

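Genes of cholesterol synthesis and its control by SREBP2 were followed through poly(A) RNA-seq of mouse embryonic stem cells (mESCs) with and without the chromatin remodeler ATPase SNF2L. The set is 8 of the 24594 genes in the count table, namely Hmgcs1, Idi1, Fdft1, Sqle, Lss and Cyp51, which code for enzymes of the pathway, and Insig1 and Srebf2, which code for proteins that control it. They were chosen by name, with earlier results of these data known, and each was found in the table by its Entrez identifier. The study compared 2 wild-type (WT) libraries with 2 libraries of cells in which Snf2l, the gene Smarca1, had been knocked out, and the question was what the loss of SNF2L does to the transcriptome. The WT cells are an mESC line of 129S6/SvEvTac background. The knockout line was derived in the same background with Cas9 and, per the methods, is represented by 1 selected clone, so that genotype and clone cannot be told apart. All cells were grown without treatment on gelatin in medium with fetal calf serum and leukemia inhibitory factor, and the labels place all libraries in 1 batch.

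Cholesterol is built from acetyl-CoA by way of mevalonate, farnesyl pyrophosphate, squalene and lanosterol. The transcription factor SREBP2, the product of Srebf2, is made as a precursor in the membrane of the endoplasmic reticulum. When sterols are scarce, its escort SCAP carries it to the Golgi, where the site-1 and site-2 proteases release the active part, which turns on the genes of the synthesis enzymes. When sterols are plentiful, the INSIG proteins hold SCAP back, and INSIG1 is itself a target of SREBP2. Because these genes share 1 regulator and 1 feedback loop, their transcripts tend to move as a group in many cell types.

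SREBP2 binds sterol regulatory elements (SREs) close to the start of its target genes, often beside a CCAAT box, the site of NF-Y, and a GC box, the site of Sp1. The 250 bases before the annotated start were searched on both strands for TCACNCCAC (a form of the SRE), CCAAT and GGGCGG. RefSeq promoters of build GRCm38.p6 were at hand for 6 of the 8 genes, with none for Sqle and Fdft1. The SRE letters occurred in 1 of these 6 promoters, that of Hmgcs1, against 1.05% of all 32851 promoters in the table. A CCAAT match occurred in 6 of 6 and a GC box match in 6 of 6, against 33.8% and 32.7% of all promoters. Matches of this kind are descriptions of the letters and not of binding. Other forms of the SRE were not searched for, so a promoter without these letters may still hold an SRE. The sequences below are those of Hmgcs1 and Idi1, which had the highest and the lowest log2 fold change of the set, and of Srebf2, the regulator. They lie at chr13:119690101-119690350, chr13:8885356-8885605 and chr15:82147019-82147268, all on the plus strand, and capitals mark every match to the 3 motifs, none of which overlapped in these sequences.
Hmgcs1: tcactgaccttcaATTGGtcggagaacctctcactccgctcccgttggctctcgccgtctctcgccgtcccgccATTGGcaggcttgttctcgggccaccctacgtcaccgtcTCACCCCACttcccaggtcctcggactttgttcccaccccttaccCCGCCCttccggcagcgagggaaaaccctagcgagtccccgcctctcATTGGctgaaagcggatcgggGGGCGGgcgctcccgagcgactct
Idi1: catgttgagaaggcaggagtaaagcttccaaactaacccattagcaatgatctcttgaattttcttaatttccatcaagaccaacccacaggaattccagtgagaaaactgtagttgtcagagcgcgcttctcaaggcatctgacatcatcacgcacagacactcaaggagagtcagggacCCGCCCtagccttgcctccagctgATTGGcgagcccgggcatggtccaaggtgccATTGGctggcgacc
Srebf2: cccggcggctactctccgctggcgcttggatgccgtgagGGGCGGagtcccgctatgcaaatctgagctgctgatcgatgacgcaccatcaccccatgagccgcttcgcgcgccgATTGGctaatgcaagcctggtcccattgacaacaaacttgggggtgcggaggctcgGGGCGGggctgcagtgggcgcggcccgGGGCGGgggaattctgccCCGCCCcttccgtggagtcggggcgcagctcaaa
In the Hmgcs1 promoter the SRE match starts at base -137, counted back from -1 at the base before the start, and reads TCACCCCAC on the strand of the gene. This promoter also held 3 CCAAT and 2 GC box matches. The Idi1 promoter had 2 CCAAT and 1 GC box match, and the Srebf2 promoter had 1 CCAAT and 4 GC box matches.

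The libraries held between 13771642 and 15608803 counts, and 13840 genes passed the filter on low counts, among them all 8 of the set. Smarca1, the targeted gene, was read 620 and 626 times in the WT libraries and 37 and 31 times in those of the knockout, which leaves 5.07% of the WT level. An adjusted p-value under 0.05 was reached by 1274 genes. Genes of chromosome 8 had a median log2 fold change of -0.51 between knockout and WT, and the 6 tested genes of chromosome Y one of -4.57, whereas the chromosomes that carry genes of the set (5, 10, 13, 14 and 15) had medians between -0.071 and 0.043. Levels are given as CPM, read counts over the TMM-scaled library size, and fold changes are of the knockout over WT. In bulk RNA, fewer cells of a type and less RNA per cell cannot be told apart. The methods describe the libraries of a genotype as independent replicates, from 1 clone in the knockout. The p-values set the genotype difference against the spread between these libraries, which edgeR estimates for each gene with information from all genes.

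Differences between the genotypes were under 2-fold for every gene of the set. In the set 1 of 8 genes, Hmgcs1, passed an adjusted p-value of 0.05, which is 12.5% beside 9.21% of all genes tested. Of all genes tested, 4.0% passed it with a higher and 5.21% with a lower level in the knockout. The set held 0 of the differentially expressed genes (DEGs) of the study's threshold (adjusted p-value under 0.01 and a change over 2-fold in edgeR), which made up 0.990% of all genes tested. An unadjusted p-value under 0.05 was reached by 2 of 8 genes in edgeR, against 22.2% of all genes. In DESeq2 0 of 8 passed an adjusted p-value of 0.05, beside 5.67% of all genes tested, and 0 of 8 were DEGs.

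Among the enzymes of the mevalonate part, Hmgcs1 codes for the cytosolic HMG-CoA synthase, an early enzyme on the way to mevalonate. Its level was 174 and 157 CPM in the WT libraries and 210 and 205 CPM in the knockout libraries (2374, 2410, 3288 and 3156 counts). The genotypes did not overlap, and the 4 ratios of a knockout to a WT library lay between 1.18 and 1.33. Hmgcs1 rose by 0.32 on the log2 scale (SE 0.090, edgeR adjusted p = 0.0350), from 166 ± 12.1 to 207 ± 2.97 CPM (SD, n = 2 each). This call was lost in DESeq2 (adjusted p = 0.0520), with a filter of at least 1 count (0.0613) and with chromosomes 8 and Y left out (0.0718). Without WT replicate 1 it was at adjusted p = 0.0927 with a log2 fold change of 0.40, and without WT replicate 2 at adjusted p = 0.408 with 0.25.

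Idi1, the isopentenyl-diphosphate isomerase, was the lowest of the set in counts and the only one with a negative log2 fold change in the full comparison. It had 11.4 and 9.72 CPM in WT and 9.56 and 10.2 CPM in the knockout, from 149 to 156 counts in each library. The knockout values lay on either side of the lower WT value, and the genotypes overlapped. The log2 fold change was -0.095, with a 95% interval from -0.41 to 0.22 (edgeR adjusted p = 0.769), and it was 0.020 without WT replicate 1.

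The 4 enzymes of the set that act between farnesyl pyrophosphate and the demethylation of lanosterol were each at a higher level in both knockout libraries than in both WT libraries, by amounts that did not pass the adjusted threshold. Fdft1, the squalene synthase at the branch into sterols, had 54.9 and 60.3 CPM in WT and 65.5 and 67.0 CPM in the knockout. The gap between its higher WT and lower knockout library was about as wide as that between its WT libraries. On the log2 scale Fdft1 was at 0.20 (SE 0.097, edgeR adjusted p = 0.245).

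Sqle codes for squalene epoxidase, the second control point of flux in the pathway. Sqle had 89.3 and 93.9 CPM in WT and 105 and 106 CPM in the knockout, with replicates closer to each other than to the other genotype. It was at 0.21 on the log2 scale (SE 0.091, edgeR adjusted p = 0.189), with a 95% interval from 0.015 to 0.40.

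Lanosterol synthase, the product of Lss, closes the sterol rings. Lss had 61.3 and 58.0 CPM in WT and 67.8 and 65.5 CPM in the knockout, which is 0.16 on the log2 scale (SE 0.095, edgeR adjusted p = 0.361). Cyp51, the lanosterol demethylase of the next step, had 53.3 and 55.3 CPM in WT and 59.0 and 62.1 CPM in the knockout, likewise 0.16 (SE 0.096, edgeR adjusted p = 0.377). For both genes the knockout libraries lay above the WT libraries without overlap.

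**Figure D1:**
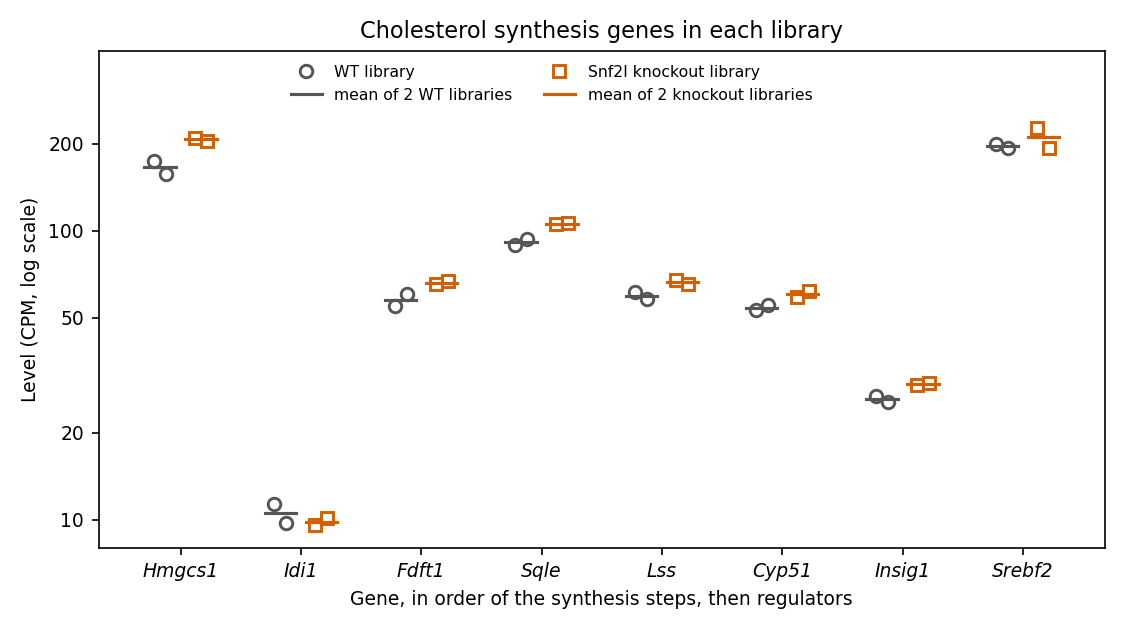
Levels in CPM (vertical axis, log scale) of the 8 genes in each of the 4 libraries, with WT libraries as grey circles, knockout libraries as orange squares and lines at the mean of each genotype. The genotypes do not overlap for 6 genes and overlap for Idi1 and Srebf2. CPM are not corrected for gene length, so heights of different genes are not to be compared.

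Among the regulators, Insig1, whose product holds SCAP in the endoplasmic reticulum, had 26.8 and 25.6 CPM in WT and 29.3 and 29.7 CPM in the knockout. Its libraries did not overlap between the genotypes, and Insig1 was at 0.17 on the log2 scale (SE 0.109, edgeR adjusted p = 0.389). Insig2, its paralog, had 31.4 and 28.3 CPM in WT and 30.2 and 29.6 CPM in the knockout, with a log2 fold change of 0.0029 and a 95% interval from -0.23 to 0.24.

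Srebf2 itself had 199 and 193 CPM in WT and 227 and 194 CPM in the knockout. Knockout replicate 2 lay between the WT libraries, and only knockout replicate 1 lay above them. Srebf2 was at 0.10 on the log2 scale (SE 0.095, edgeR adjusted p = 0.593), and it was -0.015 without knockout replicate 1. Srebf1, the paralog that drives mainly fatty acid synthesis, had 56.9 and 57.4 CPM in WT and 49.6 and 47.4 CPM in the knockout, which put it at -0.24 on the log2 scale (SE 0.097, edgeR adjusted p = 0.162).

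For the set as a whole, 7 of 8 log2 fold changes were above 0, against 50.1% of all genes tested, and the count was 7 of 8 under TMM, RLE, upper-quartile and total-count scaling. The median was 0.17, against 0.00020 over all genes tested. Both knockout libraries lay above both WT libraries for 6 of 8 genes, and below them for 0 of 8. In all genes tested, 25.2% lay above and 25.3% below in this way. The set shares 1 regulator and the 4 libraries share their scaling, so that its members are not independent of each other. It was also chosen with earlier results of these data known, so these counts are descriptions only. The summed level of the 8 genes was 671 and 653 CPM in WT and 773 and 740 CPM in the knockout, and Srebf2 and Hmgcs1 contributed most of it.

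The intervals bound what these libraries allow. Across the set the 95% intervals of the fold change ran from 0.751 (the lower end for Idi1) to 1.43 (the upper end for Hmgcs1), and 6 of 8 included no change. A 2-fold change in either direction was thus outside the interval of every gene of the set. The difference between genotypes was larger than either log2 ratio between replicates for 6 of 8 genes, all but Idi1 and Srebf2. The largest such ratio was 0.23 within either genotype.

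**Figure D2:**
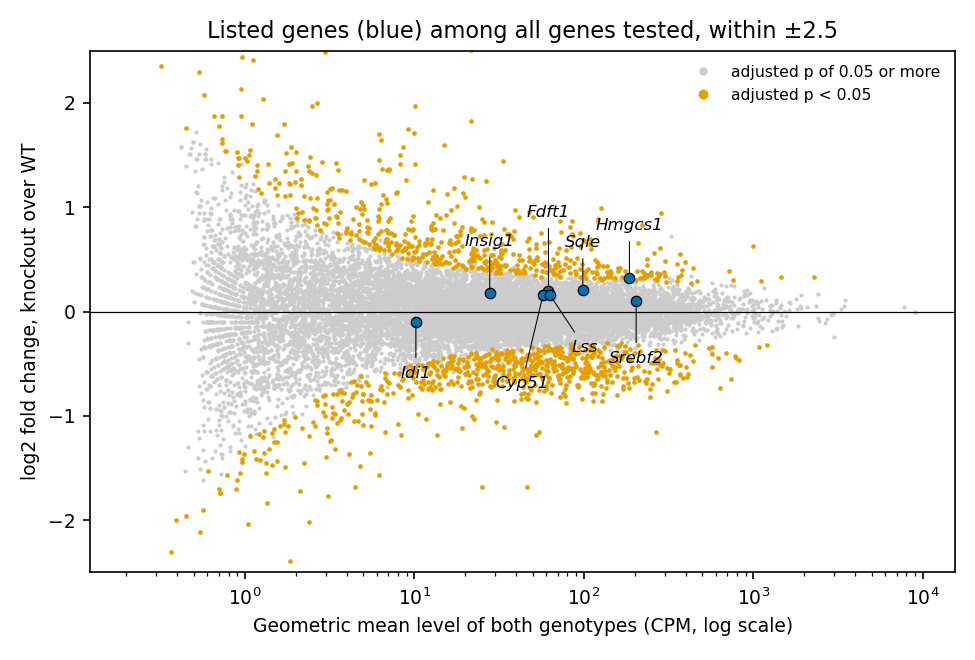
Log2 fold change of the knockout over WT (vertical axis) against the geometric mean of the levels of both genotypes in CPM (horizontal axis, log scale) for the genes tested, with adjusted p-values under 0.05 in orange and the 8 genes in blue. Only Hmgcs1 lies at the edge of the orange points, and 17 genes fall outside the plotted range.

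Levels were compared between genes per kb of the gene length given in the table. In WT the order was Hmgcs1 (36.1 ± 2.64 CPM per kb), Srebf2 (27.3 ± 0.554), Sqle (16.5 ± 0.581), Fdft1 (14.0 ± 0.917), Cyp51 (12.3 ± 0.331), Insig1 (8.47 ± 0.283), Lss (5.53 ± 0.219) and Idi1 (3.01 ± 0.336), with SD and n = 2 each. The order in the knockout was the same, and in each genotype both libraries of every gene lay above both libraries of the next. The highest level per kb was 12.0 times the lowest in WT and 16.1 times in the knockout. The length of Lss is 10787 bp in the table, more than that of any other gene of the set, and a length that counts rarely used exons lowers the level per kb. In WT, Srebf2 was at 2.69 times the level of Srebf1 per kb, and Insig1 at 0.984 times that of Insig2, with overlapping libraries. Idi2, the paralog of Idi1, had 0 counts in each library. A count of 0 allows up to 3 counts, for counting error only.

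The same question was put to 20 genes of the synthesis pathway from acetyl-CoA to cholesterol, of which 6 belong to the set. All 20 were tested, and 1 of them, Hmgcs1, passed an adjusted p-value of 0.05 (5.0%, beside 9.21% of all genes tested). The log2 fold change was above 0 in 13 of 20 genes, with a median of 0.14 and a range from -0.16 to 0.36. Both knockout libraries lay above both WT libraries for 10 genes and below for 3 genes, and 7 overlapped, beside 25.2% of all genes above and 25.3% below. The 95% intervals of the fold change ran from 0.751 to 1.66 over the pathway, and 15 of 20 included no change.

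With Hmgcs1, 5 of 20 pathway genes reached an unadjusted p-value under 0.05 in edgeR, beside 22.2% of all genes tested. The others were Sqle and, chosen after their values were seen, Mvk (0.36), Fdps (0.23) and Erg28 (0.24 on the log2 scale). Mvk is the mevalonate kinase, Fdps the farnesyl pyrophosphate synthase, and Erg28 codes for a scaffold of the later sterol enzymes. All 5 were at a higher level in both knockout libraries than in both WT libraries, as were 25.2% of all genes tested. The 5 were picked by p-values from these same libraries, so this separation adds no further evidence. The 7 pathway genes below 0 lay between -0.16 and -0.014 on the log2 scale, and an unadjusted p-value under 0.05 was found for 0 of the 7 by edgeR or DESeq2.

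**Figure D3:**
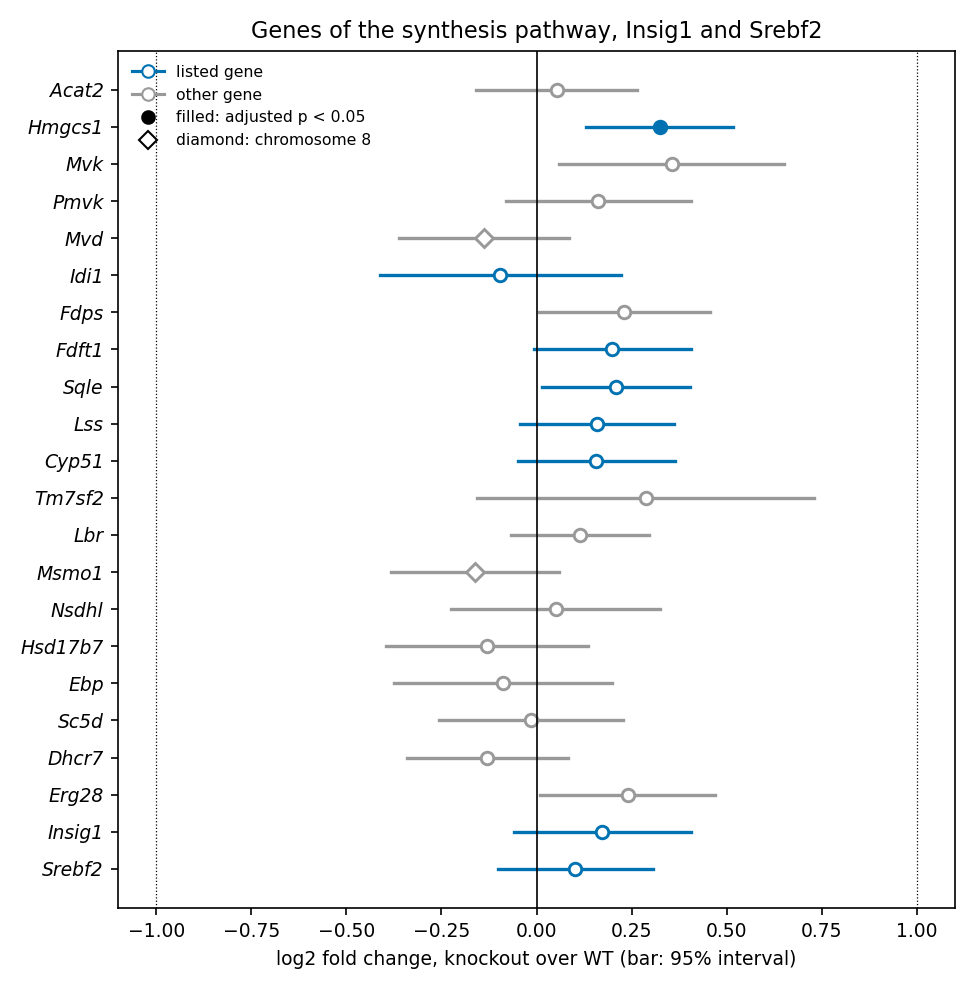
Log2 fold change of the knockout over WT (horizontal axis) with its 95% interval for 20 genes of the pathway in order of their steps, followed by Insig1 and Srebf2. The 8 genes of the set are in blue, filled symbols have an adjusted p-value under 0.05, diamonds lie on chromosome 8, and dotted lines mark a 2-fold change, which no interval reaches.

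No gene of the set lies on chromosome 8, but 3 genes of the lipid lists described here do. Mbtps1, which codes for the site-1 protease that makes the first cut in SREBP2, had 344 and 340 CPM in WT and 231 and 207 CPM in the knockout. Mbtps1 fell by 0.65 on the log2 scale (SE 0.089, edgeR adjusted p = 3.47e-04). After the chromosome 8 median was taken off, a step added once the data had been seen, Mbtps1 was at -0.14 (edgeR adjusted p = 0.426). Of the 754 chromosome 8 genes tested, 22.8% had a lower log2 fold change than Mbtps1.

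The synthesis genes on chromosome 8, chosen after their values were seen, stood elsewhere in that distribution. Mvd, the mevalonate diphosphate decarboxylase, was at -0.14 and Msmo1, the sterol methyl oxidase, at -0.16 on the log2 scale, and 89.7% and 88.9% of the chromosome 8 genes were lower. Relative to the chromosome 8 median they were at 0.37 (edgeR adjusted p = 0.0609) and 0.34 (adjusted p = 0.0740), which did not pass the threshold.

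In the list of SREBP control genes, 1 of 10 genes passed an adjusted p-value of 0.05 in edgeR and in DESeq2, namely Mbtps1, beside 9.21% and 5.67% of all genes tested. The list median was -0.073, with 6 of 10 genes below 0. Among the 6 genes of cholesterol uptake and transport, 0 passed in either tool, and neither edgeR nor DESeq2 gave any of them an unadjusted p-value under 0.05. In edgeR 22.2% of all genes tested reached it. The median of the 6 genes was 0.019 on the log2 scale, with 3 genes above and 3 below 0.

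Fatty acid synthesis, the branch of lipid synthesis that SREBP1 drives, was set beside the cholesterol genes. Of 11 genes, 2 passed an adjusted p-value of 0.05 and both fell, beside 9.21% of all genes tested with a call and 5.21% with a call and a lower level. In this list 9 of 11 genes were below 0, with a median of -0.20, whereas 50.1% of all genes were above 0. Scd2, a stearoyl-CoA desaturase, had 360 and 328 CPM in WT and 270 and 258 CPM in the knockout, and fell by 0.38 on the log2 scale (SE 0.087, edgeR adjusted p = 0.0116). Acaca, the acetyl-CoA carboxylase that makes malonyl-CoA, had 94.8 and 70.6 CPM in WT and 66.7 and 45.4 CPM in the knockout, and fell by 0.56 on the log2 scale (SE 0.159, edgeR adjusted p = 0.0392). The WT replicates of Acaca were farther apart than the nearest libraries of the 2 genotypes. Its call was lost without WT replicate 1 (-0.33, adjusted p = 0.254), without knockout replicate 2 (-0.31, adjusted p = 0.0919), in DESeq2 (adjusted p = 0.507), and under 4 other alternatives (adjusted p = 0.0542 to 0.100), and that of Scd2 without WT replicate 1 (-0.31, adjusted p = 0.233). Acaca lies on chromosome 11, whose tested genes had a median log2 fold change of -0.087, and Scd2 on chromosome 19, with 0.024. Whether the cholesterol and fatty acid lists differ was not tested.

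Neither the 7 genes of sterol efflux and storage nor the 6 genes of other isoprenoid branches, such as dolichol and ubiquinone, held a gene with an adjusted p-value under 0.05 in edgeR. An unadjusted p-value under 0.05 was reached by 3 and 1 of them in edgeR, against 22.2% of all genes tested. In DESeq2 0 genes of either list passed an adjusted p-value of 0.05, beside 5.67% of all genes tested. The efflux and isoprenoid medians were 0.16 and -0.014 on the log2 scale.

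**Figure D4:**
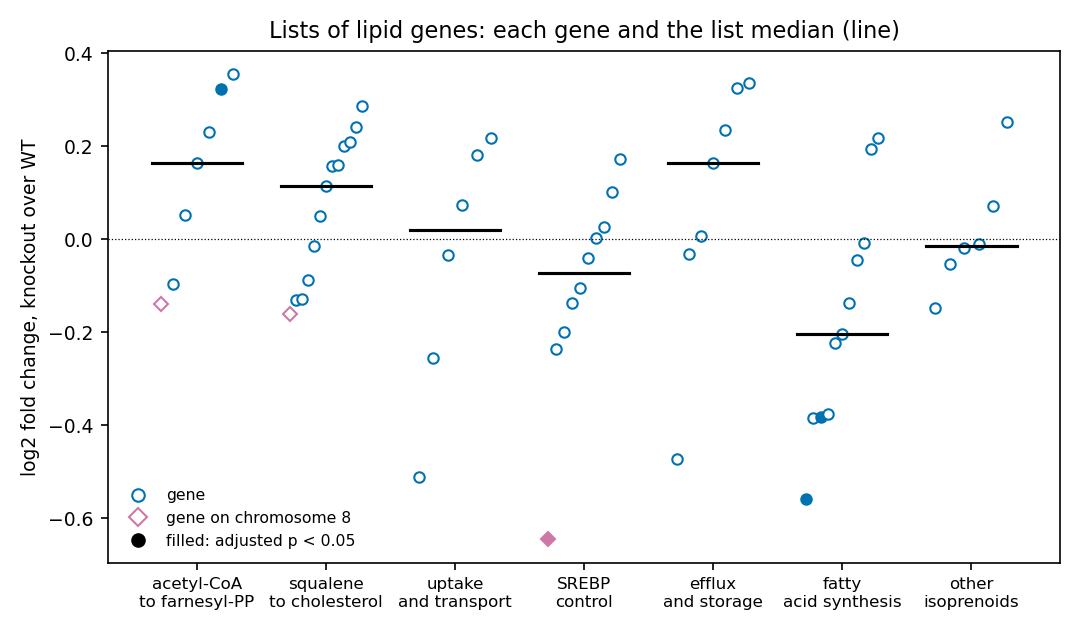
Log2 fold change of the knockout over WT (vertical axis) for each tested gene of 7 lists of lipid genes, with the list median as a line, chromosome 8 genes as diamonds and adjusted p-values under 0.05 as filled symbols. The lowest value is that of the chromosome 8 gene Mbtps1 in the SREBP control list, and the fatty acid list has the lowest median (-0.20).

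The cell type was checked against markers. The 10 pluripotency genes summed to 5058 and 5326 CPM in WT and to 5520 and 5588 CPM in the knockout. Both knockout libraries lay above both WT libraries for 6 of 10 and below for 2. Klf4 was higher (0.34 on the log2 scale, edgeR adjusted p = 0.0359). Zfp42 was lower (-0.60, edgeR adjusted p = 3.80e-04) and lies on chromosome 8, whose tested genes had a median of -0.51. In DESeq2 1 of 10, Zfp42, passed an adjusted p-value of 0.05. The 8 fibroblast markers summed to 15.4 and 12.7 CPM in WT and to 28.5 and 28.5 CPM in the knockout, of which 6 were tested, all 6 were higher in both knockout libraries and 2 passed an adjusted p-value of 0.05. Col1a1 passed with 77 and 69 counts in WT and 207 and 211 in the knockout. Col3a1 passed with 4 and 8 counts in WT and 29 and 42 in the knockout. The untested fibroblast markers were Lum, with 0 counts in every library, and Dcn, with 0 to 2 counts. The 8 primitive endoderm markers summed to 23.2 and 20.3 CPM in WT and to 37.8 and 33.1 CPM in the knockout, with 4 of 7 tested genes higher at an adjusted p-value under 0.05 in edgeR and 1 of 7 in DESeq2. Among all genes tested, edgeR gave 4.0% such a higher level and 9.21% a call in either direction, and DESeq2 gave 5.67% a call. Both knockout libraries lay above both WT libraries for 25.2% of all genes tested, and below them for 25.3%. The summed levels of the pluripotency, fibroblast and primitive endoderm markers were all higher in the knockout, as was Hmgcs1. Their part in its value was not tested.

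Several genes of the set share exonic bases with a gene on the other strand in the GENCODE annotation of the same build. The positions printed here are those of RefSeq, whose gene ends can differ from those of GENCODE. Fdft1 (chromosome 14, 63145150 to 63181687) shares 774 bases with Ctsb, Cyp51 (chromosome 5, 4080674 to 4104697) shares 166 bases with Akap9, and Lss (chromosome 10, 76531565 to 76557139) shares 381 bases with 4930483K19Rik. Hmgcs1 (chromosome 13, 119690351 to 119708260) and Idi1 (chromosome 13, 8885606 to 8892396) share 557 and 323 bases with the loci Gm48342 and Gm48574. No counts were matched to these loci. The labels name a stranded kit and the methods an unstranded one, and the strand setting of the counting is not given in the sources used here. If counting ignored strand, reads in the shared bases cannot be told apart. Sqle (chromosome 15, 59315092 to 59331193) and Insig1 (chromosome 5, 28071412 to 28078662) overlap no other gene. Srebf2 (chromosome 15, 82147269 to 82205379) shares no exonic base, and the microRNA gene Mir33 within it had 0 counts in every library.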

How the data were processed

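Poly(A) RNA of 4 mESC libraries was sequenced. Per the methods, the authors aligned reads to mm10 with QuasR (spliced alignment, HISAT2) and counted them over UCSC Known Genes. The deposited values are whole-number read counts per Entrez gene, not normalized, with a gene length in bp. The submitters' processing notes name bcl2fastq 2.17. Symbols and positions came from RefSeq GRCm38.p6, the assembly of mm10, with 24570 of 24594 genes matched. Overlaps came from GENCODE vM21.

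Genes were tested in R 4.3.3 with edgeR 4.0.16 (filterByExpr with a minimum count of 10, TMM, estimateDisp, and glmQLFit and glmQLFTest in legacy form). Genotype was the only term, tests were two-sided, and p-values were adjusted by Benjamini-Hochberg over 13840 genes. TMM is an assumption, since no scaling is stated. SEs came from the fold change and the F statistic, and 95% intervals from the t quantile at the degrees of freedom of the test. The procedure was tested on simulated data. Replicates differed by more than sampling noise (chi-square per degree of freedom of 4.38 in WT and 6.18 in the knockout). The libraries held 13771642 to 15608803 counts, and the precision rested on the spread between replicates, with 2 libraries per genotype. Intervals cover these libraries only.

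The genes, lists and motifs were chosen with earlier results of these data known. The genes named are the 8 of the set, Smarca1, the paralogs Idi2, Insig2 and Srebf1, and each gene of the lipid lists with an adjusted p-value under 0.05. Further genes (Mvk, Fdps, Erg28, Mvd and Msmo1) were named after their values were seen, and Klf4, Zfp42, Col1a1, Col3a1, Lum and Dcn as markers. Some genes of the pathway and its lists are not reported here and are in none of the list counts. Alternatives were other scalings, filters and fits, DESeq2 1.42.0, the replicate number as a block, chromosomes 8 and Y left out, the chromosome 8 shift removed, and each library left out in turn.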

Additional observations from a re-analysis of the deposited data

How the results depend on the processing

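In the set, Hmgcs1 was the 1 gene to pass an adjusted p-value of 0.05, also under RLE, upper-quartile and total-count scaling, the filter of at least 10 counts and the edgeR 4 fit. The count of such genes was 0 in DESeq2, with the filter of at least 1 count, without the genes of chromosomes 8 and Y, and after the shift of chromosome 8 was taken off (an alternative added after the data were seen). It ranged from 0 to 1 with 1 library left out. For the 20 pathway genes the count was 1, and it was 0 in the same 4 alternatives and 0 to 3 with 1 library left out. Across all genes the count was 1274, and 785 in DESeq2, 574 without chromosomes 8 and Y, 662 after the chromosome 8 shift was taken off, and 829 to 1932 with 1 library left out. DEGs numbered 137, and 88 in DESeq2. Upper-quartile scaling moved the share of higher calls among all genes from 43.4% to 49.9%, the fit without chromosomes 8 and Y to 64.5%, and the removal of the chromosome 8 shift to 67.2%.

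In a fit with a replicate block, 3 genes of the set (Hmgcs1, Sqle and Fdft1) and 6 pathway genes passed, within 3471 of all genes (25.1%) and 223 DEGs. The deviations of libraries with the same number had a correlation of 0.293 over genes. With 2 pairs this cannot show that numbers stand for a shared origin.

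Signs turned for values near 0. With chromosomes 8 and Y left out Insig2 was at -0.010. With 1 library left out, Idi1 ranged from -0.21 to 0.020, Srebf2 from -0.015 to 0.21 and Insig2 from -0.074 to 0.080. The causes were not tested. With 2 libraries per genotype, SEs of the set ranged from 0.090 to 0.149 on the log2 scale.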
